A study of Saccharomyces cerevisiae with 72 samples.

Results

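Yhp1-13A, a form of the budding yeast repressor Yhp1 that lacks its Cdk1 phosphorylation sites, was compared with wild type Yhp1 after acute overexpression, at 20 and at 60 min of induction. The comparison rests on 36 of the 72 RNA libraries of the series, 3 for each of 4 strains at 0, 20 and 60 min after 1 uM estradiol was added. The inducible strains carried URA3::Z4pr-yhp1-13A-3V5-KanMx or URA3::Z4pr-YHP1-3V5-KanMx. By the study's methods the inducible promoter sat upstream of the gene itself, so that estradiol switched on the V5-tagged protein. The matching control strains carried URA3::Z4pr-HO, with that promoter upstream of HO, and kept yhp1-13A-3V5-KanMx or YHP1-3V5-KanMx under the native promoter. Every strain was MATa and had HAP1+::NatMX::pACT1-Z3EV-ENO2term, which makes the estradiol-responsive activator, together with ura3Δ0, his3Δ1, lypΔ0 and can1Δ::STE2pr-SpHIS5. Each genotype was 1 strain, grown asynchronously in YM-1 medium with 2% dextrose. The difference between alleles was the change of the Yhp1-13A inducible strain from 0 min, minus that of its control, minus the same quantity for Yhp1, in log2(TPM + 1). TPM, the transcript level of a gene scaled for its length and for the size of the library, is the deposited unit.

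Yhp1 and its paralog Yox1 are homeodomain proteins that bind DNA beside the MADS-box activator Mcm1 and repress its targets. Among those targets are genes with early cell cycle boxes, which are transcribed around the end of mitosis and in G1, and genes of the CLB2 cluster, which are transcribed in G2 and M phase. Cdk1, the main cell cycle kinase, phosphorylates both repressors. The comparison addresses whether loss of those sites alters how far Yhp1 lowers its targets. In bulk RNA of an asynchronous culture, fewer cells in a given cell cycle stage and less RNA per cell cannot be told apart. From DNA content, the study reported little or no change in cell cycle distribution after these inductions.

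Both forms were induced to like mRNA levels. Protein was not alike, since the study's western blot of these strains showed more phosphomutant than wild type protein. RNA does not measure that difference. YHP1 (YDR451C) was at 21.6, 19.9 and 22.2 TPM in the Yhp1-13A inducible strain at 0 min, against 23.8, 22.5 and 20.1 TPM in the Yhp1 inducible strain. At 20 min it reached 868, 769 and 901 TPM with Yhp1-13A, against 903, 782 and 868 TPM with Yhp1, and at 60 min 809, 737 and 914 TPM against 783, 754 and 802 TPM. The groups overlapped at every time, and the difference between alleles was -0.10 in log2 at 20 min (95% interval -0.42 to 0.22) and 0.19 at 60 min (-0.14 to 0.51, limma adjusted p = 0.779). The controls were less alike. YHP1 under its own promoter spanned 37.4 to 65.9 TPM over the yhp1-13A control libraries and 52.9 to 85.2 TPM over the YHP1 control libraries, lower in the mutant by 0.48 in log2 at 0 min (adjusted p = 0.00684) and by 0.54 at 60 min (adjusted p = 0.0024). Those control differences passed the p threshold and not the size threshold used for calls. Without subtraction of the 0 min libraries they carried over, and the YHP1 difference at 60 min was then 0.61 (adjusted p = 0.00351). HO, the gene of the mating type switching endonuclease, is described as non-functional in the study's methods. It stood under the inducible promoter in the controls and responded there with either allele. At 20 min it was at 334.5, 350.4 and 330.5 TPM in the yhp1-13A control, against 314, 324 and 305 TPM in the YHP1 control.

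Among the 36 libraries, 6174 to 6290 genes exceeded 1 TPM and the correlation across genes with the closest other library was 0.9954 to 0.9973. The TPM do not give read depth, so precision was judged from the spread of the 3 libraries. The libraries farthest from their group were replicates 1 and 2 of the yhp1-13A control at 0 min, with median absolute deviations of 0.191 and 0.173 in log2 against 0.0528 in the closest library. All 7 markers of MATa cells were present (summed level 3354 to 10740 TPM). Of 4 MATalpha markers, MF(ALPHA)1 lay below the filter and the other 3 summed to 22.1 to 36.3 TPM, with the receptor gene STE3 at 0.782 to 3.41 TPM. The 5 meiotic markers summed to 37.1 to 49.7 TPM.

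Yhp1-13A lowered a small set of genes further than Yhp1 did, and raised 1 gene further. A gene was called where the limma p, adjusted by Benjamini-Hochberg over the 6230 genes whose mean level reached 1 TPM, was under 0.05 and the absolute log2 difference above 0.58. At 20 min 8 genes (0.128% of those tested) were lower with Yhp1-13A, namely MFA2, WSC4, YML119W, PIG1, PRY1, KIN3, NDL1 and BNS1. None (0%) was higher by limma, although 43 were higher and 100 lower at an unadjusted p under 0.05. At 60 min 13 genes (0.209%) were lower and 1, AGA1, was higher (0.0161%). MFA2, WSC4, YML119W, PIG1, PRY1 and BNS1 were called lower at both times, which share their 0 min libraries. PHO3, TDA6, SED1, TIP1, TPO3, HSP150 and the tRNA gene tF(GAA)D joined them at 60 min. In all 15 genes were lower at 1 time or more, 14 of them protein-coding with mean levels of 7.57 to 5170 TPM. These calls rest on the block for replicate number. Without it limma called 0 genes at 20 min (48 at an unadjusted p under 0.05) and MFA2 alone at 60 min.

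**Figure D1:**
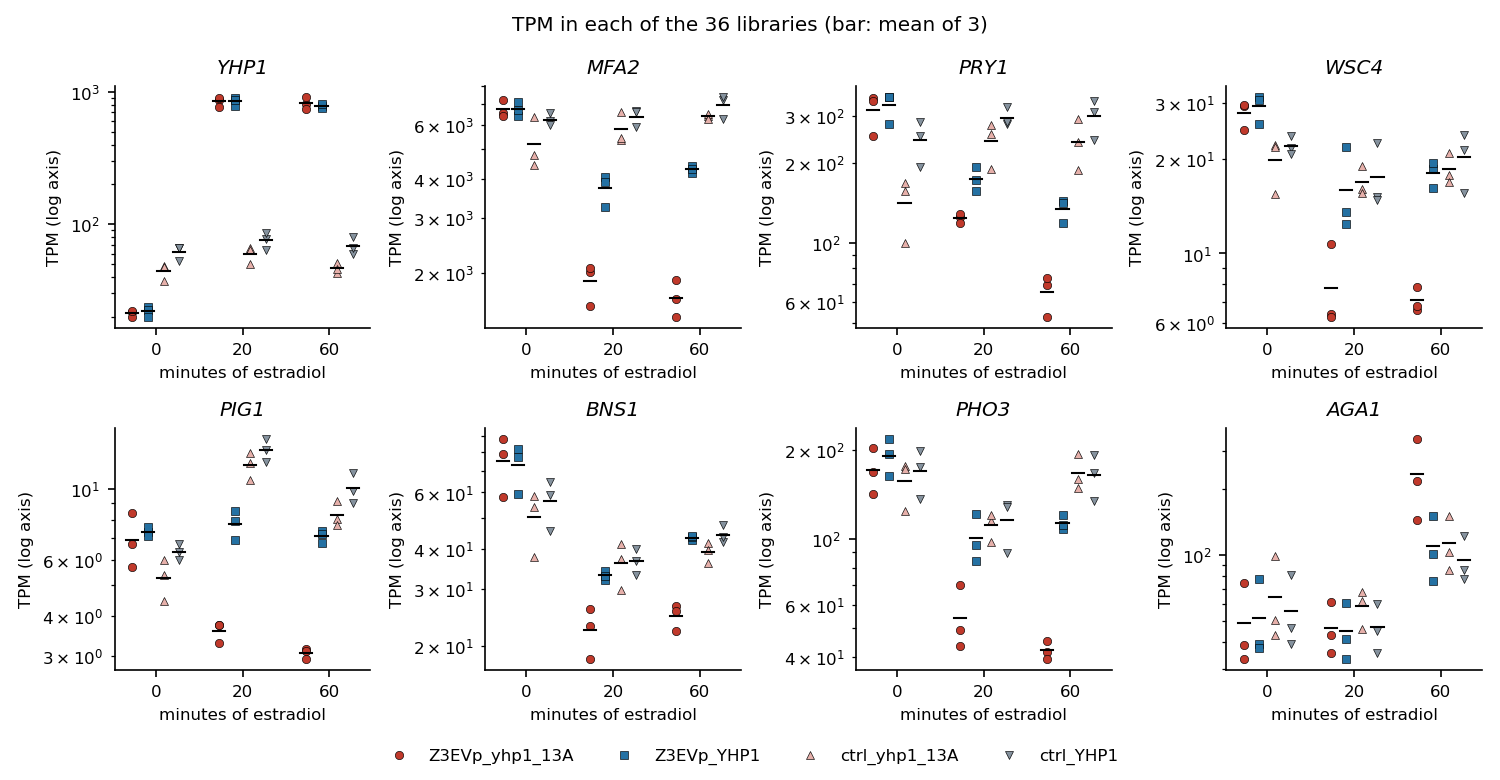
Level in TPM of YHP1 and 7 called genes in each library by time, with the Yhp1-13A inducible strain, the Yhp1 inducible strain and their controls as separate point series and bars at the mean of 3, on log axes. For MFA2 at 60 min the Yhp1-13A libraries lie between 1436 and 1895 TPM and the Yhp1 libraries between 4200 and 4421 TPM.

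For the protein-coding genes called lower, both forms had inductions below 0 and Yhp1-13A the lower one. The 8 genes called lower at 20 min had inductions (change of the inducible strain minus that of its control) of -2.10 to -1.24 in log2 with Yhp1-13A and of -1.21 to -0.49 with Yhp1. All 8 passed as lower with Yhp1-13A and 5 of the 8 with Yhp1. For the 12 protein-coding genes at 60 min the ranges were -3.03 to -1.15 with Yhp1-13A and -1.58 to -0.28 with Yhp1, and 12 and 7 of them passed. Over all genes, Yhp1-13A lowered 38 genes at 20 min (0.61%) and 57 at 60 min (0.915%), and Yhp1 lowered 15 (0.241%) and 24 (0.385%). The count of genes raised was 2 (0.0321%) and 10 (0.161%) with Yhp1-13A, and 1 (0.0161%), YHP1 itself, at each time with Yhp1. Genes past the threshold with 1 form and not with the other were counted as different only where the difference between alleles itself passed.

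**Figure D2:**
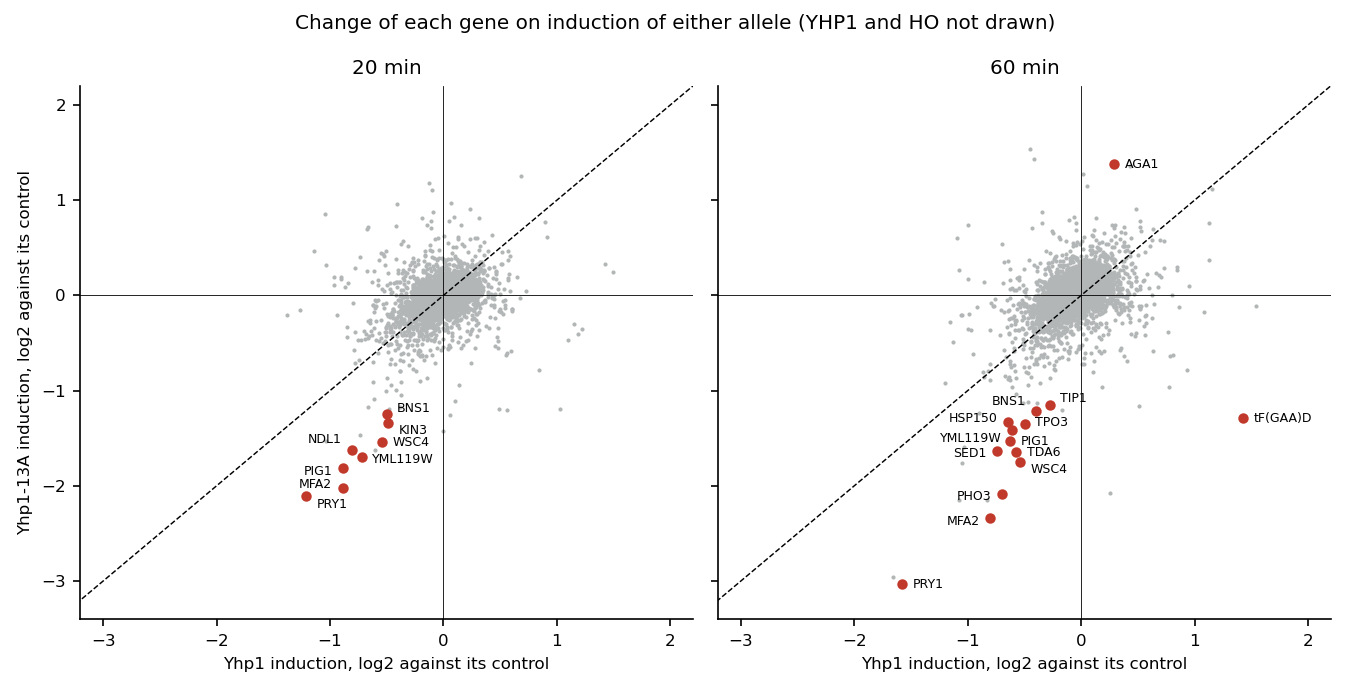
Induction with Yhp1-13A against induction with Yhp1 for each of the 6230 genes at 20 and 60 min, in log2, with called genes named and YHP1 and HO not drawn. The genes called lower lie under the diagonal, with MFA2 at 60 min at -2.34 with Yhp1-13A and -0.80 with Yhp1, and AGA1 lies above it at 1.38 and 0.29.

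MFA2 (YNL145W, chromosome XIV 352414 to 352530), one of the genes for the mating pheromone a-factor, changed most among protein-coding genes. It was at 2002, 2066 and 1564 TPM in the Yhp1-13A strain at 20 min, against 4075, 3917 and 3267 TPM in the Yhp1 strain. At 60 min the values were 1895, 1640 and 1436 TPM with Yhp1-13A and 4421, 4200 and 4333 TPM with Yhp1. The groups did not overlap at either time, while at 0 min they did (6430 to 7232 TPM and 6425 to 7102 TPM). Here and below, a lack of overlap between libraries describes the values that were tested and gives no further support for a call. The share of all genes without overlap was not counted. The yhp1-13A control held 6251 to 6521 TPM at 60 min and the YHP1 control 6261 to 7379 TPM. The difference between alleles was -1.13 (SE 0.15, adjusted p = 0.000844) at 20 min and -1.54 (SE 0.15, adjusted p = 3.05e-06) at 60 min, or 2.91-fold lower in TPM + 1. It was the 1 gene called at 60 min with or without the block. The a-factor gene MFA1 was not called, at -0.05 and -0.49, nor was any of the other a-specific genes. All 7 of them were below 0 at 20 min, with a median of -0.29, and 3 of 7 at 60 min, with a median of 0.01 where the median of all genes was 0.10.

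BNS1 and KIN3 belong to the G2/M program. BNS1 (YGR230W, VII 951894 to 952307) is a paralog of the mitotic exit regulator SPO12. It was at 18.2, 26.0 and 23.0 TPM with Yhp1-13A at 20 min, against 32.0, 34.3 and 33.1 TPM with Yhp1. At 60 min it was at 22.3, 26.5 and 25.6 TPM against 42.6, 43.6 and 43.8 TPM. No Yhp1-13A library reached the lowest Yhp1 library, and the differences were -0.74 (SE 0.13, adjusted p = 0.0157) and -0.82 (SE 0.13, adjusted p = 0.00174). The BNS1 call at 20 min was lost without any 1 of 4 of the 36 libraries (adjusted p up to 0.0624), with a common median (adjusted p = 0.112) and in a fit to the times compared alone (adjusted p = 0.088). KIN3 (YAR018C, I 170396 to 171703), a NIMA-related kinase, was at 8.1, 7.0 and 6.75 TPM with Yhp1-13A at 20 min and at 11.9, 11.5 and 12.3 TPM with Yhp1, a difference of -0.85 (SE 0.14, adjusted p = 0.0038). With a pseudocount of 10 it was -0.50 and not called. At 60 min KIN3 had a difference of -0.46 and was not called (adjusted p = 0.431). KIN3 was also 0.38 lower in log2 in the yhp1-13A control than in the YHP1 control at 0 min (adjusted p = 0.0144).

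Of the 23 CLB2 cluster genes, KIN3 and BNS1 were called at 20 min and BNS1 at 60 min. At 20 min 18 of the 23 lay below 0, with a median of -0.15 against -0.00 for all genes, and at 60 min 11 did, with a median of 0.04 against 0.10. HOF1, a cytokinesis protein, had differences of -0.71 (adjusted p = 0.608) and -0.75 (adjusted p = 0.314). In the inductions themselves 6 members were lower with Yhp1-13A at 20 min (CLB1, CDC20, HOF1, KIN3, SPO12 and BNS1) and 5 at 60 min. None was with Yhp1. BNS1 was also the called member of the 19 mitotic exit genes at either time. None of the 5 condensin genes was called.

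The replicative helicase and its loaders gave no call in 15 genes at either time. MCM7, a subunit of the helicase, was at 23.0, 23.8 and 23.8 TPM with Yhp1-13A at 20 min, against 36.6, 33.9 and 34.7 TPM with Yhp1. Those libraries did not overlap, and the difference of -0.51 missed the threshold (adjusted p = 0.112), as did -0.47 at 60 min (adjusted p = 0.136). MCM5 had -0.54 (adjusted p = 0.389) and -0.33. The induction of MCM2 and MCM7 was called lower with Yhp1-13A at 20 min, at -0.68 each, and that of no member with Yhp1. Among 13 G1 cyclins and Start regulators none was called, and MSA1, an activator of G1 transcription, had the lowest values at -0.48 and -0.46.

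In the PRY family 1 of 3 genes was called at each time. PRY1 (YJL079C, X 289875 to 290774), a secreted sterol-binding protein, was at 125, 128 and 119 TPM with Yhp1-13A at 20 min, against 172, 192 and 156 TPM with Yhp1. At 60 min it was at 52.5, 69.4 and 73.5 TPM against 118, 143 and 141 TPM, and the groups did not overlap at either time. Its differences were -0.89 (SE 0.18, adjusted p = 0.0497) and -1.45 (SE 0.18, adjusted p = 0.000146). Part of each lay in the controls before estradiol. PRY1 was the 1 gene called between the controls at 0 min (0.0161%), with 99.5, 167.4 and 155.9 TPM in the yhp1-13A control against 192.1, 251.3 and 285 TPM in the YHP1 control, or -0.80 in log2 (adjusted p = 5.36e-05). Without the controls the difference was -0.41 (adjusted p = 0.783) at 20 min, which ended the call, and -0.97 (adjusted p = 6.97e-05) at 60 min. The call at 20 min was also lost without any 1 of 28 of the 36 libraries (adjusted p up to 0.182). PRY2 and PRY3, its paralogs, were not called.

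WSC4 (YHL028W, VIII 48763 to 50580), a membrane protein of the WSC stress sensor family, was at 10.7, 6.42 and 6.28 TPM with Yhp1-13A at 20 min and at 21.7, 13.5 and 12.4 TPM with Yhp1. At 60 min it was at 7.82, 6.63 and 6.83 TPM against 18.5, 19.4 and 16.2 TPM. Every Yhp1-13A library lay below every Yhp1 library at both times, and in both strains replicate 1 was the highest at 20 min. The differences were -0.997 (SE 0.20, adjusted p = 0.0405) and -1.22 (SE 0.20, adjusted p = 0.00174). The call at 20 min was lost without any 1 of 22 of the 36 libraries (adjusted p up to 0.133) and, at -0.56, with a pseudocount of 10. The other 5 sensor genes tested were not called.

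Of 17 cell wall glycoproteins none was called at 20 min and HSP150, SED1 and TIP1 were at 60 min, when 13 of 17 lay below 0 with a median of -0.13 against 0.10 for all genes. HSP150 (YJL159W, X 120449 to 121690), a secreted heat shock mannoprotein, was at 536, 486 and 572 TPM with Yhp1-13A, against 819, 730 and 984 TPM with Yhp1, a difference of -0.68 (SE 0.10, adjusted p = 0.00121). SED1 (YDR077W), a structural protein anchored in the wall, was at 2018, 2093 and 1361 TPM against 4010, 3738 and 2957 TPM (-0.90, SE 0.18, adjusted p = 0.018). TIP1 (YBR067C), a cell wall mannoprotein, was at 206, 210.4 and 241 TPM against 373, 347 and 500.5 TPM (-0.87, SE 0.18, adjusted p = 0.0284). In each of the 3 genes, which were called from these same libraries, the groups stood apart at 60 min. The call was lost without any 1 of 10 libraries for SED1 and of 15 for TIP1 (adjusted p up to 0.0676 and 0.104). The glycoprotein gene YGP1 had a larger difference with more spread, -1.08 (adjusted p = 0.135), and so did YRO2 of the MRH1 family of membrane proteins, -1.30 (adjusted p = 0.0599). None of 18 cell wall enzymes was called.

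The remaining genes had roles in metabolism, transport and the spindle. PIG1 (YLR273C, XII 689083 to 691029), a putative targeting subunit for the phosphatase that acts on glycogen synthase, was at 3.75, 3.76 and 3.30 TPM with Yhp1-13A at 20 min, against 8.50, 7.91 and 6.91 TPM with Yhp1. At 60 min it was at 2.93, 3.15 and 3.12 TPM against 7.37, 7.23 and 6.78 TPM, with no overlap at either time. Its differences were -0.93 (SE 0.17, adjusted p = 0.0157) and -0.90 (SE 0.17, adjusted p = 0.012). The call at 20 min was lost without any 1 of 6 of the 36 libraries (adjusted p up to 0.0638). Both calls were lost with a pseudocount of 10, at -0.36 and -0.32, and in a fit to the times compared alone (adjusted p = 0.0672 and 0.0792). PIG1 was the 1 called member of 11 glycogen genes. It shares its upstream region of 525 bases with MCM5, which is transcribed away from it and was not called. YML119W, an uncharacterized gene, was at 9.13 to 10.6 TPM with Yhp1-13A at 20 min and at 18.8 to 23.9 TPM with Yhp1 (-0.98, SE 0.16, adjusted p = 0.0038). At 60 min its difference was -0.80 (SE 0.16, adjusted p = 0.0148), a call that was lost without replicate 3 of the Yhp1 strain at 0 or at 60 min (adjusted p up to 0.0552). NDL1, which acts with dynein, was at 5.08 to 6.80 TPM against 10.2 to 11.6 TPM at 20 min (-0.82, SE 0.17, adjusted p = 0.0475), and at -0.56 was not called at 60 min (adjusted p = 0.431). Its call at 20 min was lost without any 1 of 27 of the 36 libraries (adjusted p up to 0.144) and, at -0.41, with a pseudocount of 10.

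PHO3 (YBR092C, II 427698 to 429101), an acid phosphatase gene, was at 45.2, 41.6 and 39.3 TPM with Yhp1-13A at 60 min, against 108, 111 and 120.5 TPM with Yhp1. The difference was -1.39 (SE 0.19, adjusted p = 0.000369), and at 20 min it was -0.79 (adjusted p = 0.189). It was the 1 called member of 13 phosphate genes. PHO5, the closely similar neighbour of PHO3, had 0.15 and 0.01. The study counted only fragments with a mapping quality above 20, and TPM do not show how many fragments of the pair this left out. TPO3, a polyamine transporter gene, and TDA6, an uncharacterized gene, are transcribed away from each other across 1488 bases of chromosome XVI. TPO3 was at 22.3 to 29.7 TPM with Yhp1-13A at 60 min and 44.0 to 54.2 TPM with Yhp1 (-0.86, SE 0.13, adjusted p = 0.00121). TDA6 was at 1.77 to 2.37 TPM against 4.30 to 5.85 TPM (-1.07, SE 0.16, adjusted p = 0.00121), or -0.39 and not called with a pseudocount of 10. Both members of the pair stood apart between the strains, and neither was called at 20 min. The last called gene, tF(GAA)D, is 1 of several near-identical phenylalanine tRNA genes. It was listed at 0 in all 3 Yhp1 libraries of 0 min and at 1.93, 1.02 and 1.47 TPM in those of Yhp1-13A, so its call is uncertain and no fold is given.

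AGA1 (YNR044W, XIV 703699 to 705876), the anchorage subunit of a-agglutinin, was the gene that went the other way. At 60 min it was at 339.6, 219 and 144 TPM in the Yhp1-13A strain, against 151, 102 and 76.1 TPM in the Yhp1 strain. The yhp1-13A control held 151, 104 and 85.2 TPM and the YHP1 control 123, 85.8 and 77.9 TPM. Replicate 1 was the highest in every group, and within each replicate number the Yhp1-13A library was the highest of the 4 although the groups overlapped. The difference was 1.09 (SE 0.17, 95% interval 0.74 to 1.44, adjusted p = 0.00121), or 2.13-fold higher, against -0.02 at 20 min. AGA1 was also the 1 gene (0.0161%) for which the difference between alleles itself differed between 60 and 20 min, by 1.10 (SE 0.17, adjusted p = 0.00675), a call lost with a common median (0.98, adjusted p = 0.108). No gene (0%) was called lower in that test of times, with 72 lower and 368 higher at an unadjusted p under 0.05. KIN3 and NDL1, called at 20 min, and the genes called first at 60 min are therefore not shown to differ between the times.

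Of the 12 pheromone-induced genes AGA1 was the 1 called at 60 min, and 2 lay below 0, where 24.3% of all genes did. FUS1, a cell fusion protein, had 0.93 (adjusted p = 0.125), KAR4, a transcription factor of karyogamy, 0.57 (adjusted p = 0.431), and the median of the 12 genes was 0.34 against 0.10 for all genes. At 20 min the median was -0.03. The inductions of FUS1, FUS3, AGA1 and SST2 were called higher with Yhp1-13A at 60 min, from 0.71 for the MAP kinase gene FUS3 to 1.38 for AGA1, and none was with Yhp1. That of FAR1, an inhibitor of Cdk1 in the pheromone response, was called lower with Yhp1-13A at 20 min (-0.62, adjusted p = 0.000525). The markers of the other mating type were read beside these genes. The 3 MATalpha markers summed to 33.6 to 36.3 TPM in the Yhp1-13A strain at 60 min, against 29.7 to 32.6 TPM in the Yhp1 strain, with no overlap, and to 28.9 to 34.3 TPM in the yhp1-13A control and 27.9 to 31.7 TPM in the YHP1 control. The sum in the Yhp1-13A strain thus overlapped that in its own control. None of the 3 was called (STE3 0.29, SAG1 0.15 and MF(ALPHA)2 0.00). Their median of 0.15 lay near the 0.10 of all genes, and their part in the result was not tested.

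**Figure D3:**
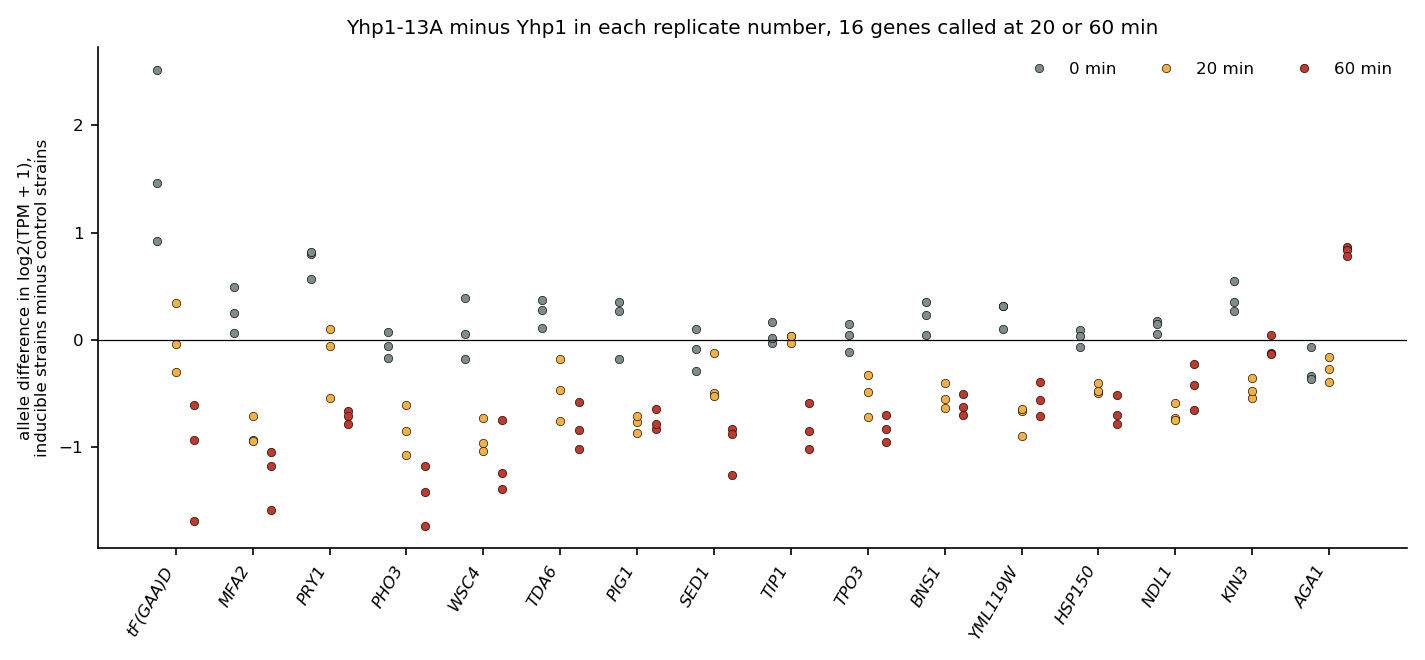
Per replicate number, the gap between the inducible strains minus the gap between the controls in log2(TPM + 1) at 0, 20 and 60 min for the called genes, 1 point per replicate. The 3 MFA2 points lie between 0.06 and 0.49 at 0 min and between -1.59 and -1.04 at 60 min, and the 3 AGA1 points between 0.79 and 0.87 at 60 min.

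The differences were also read per replicate. For each replicate number the gap between the inducible strains minus that between the controls was taken at each time. These gaps come from the same libraries as the calls. Their placement in called genes therefore describes the calls and gives no further support for them. In all 8 genes called lower at 20 min and all 13 called lower at 60 min, the 3 gaps lay below all 3 gaps of 0 min. Over all genes tested 5.3% were so placed at 20 min and 3.02% at 60 min. The 3 gaps of AGA1 at 60 min lay above those of 0 min, as did those of 13.5% of all genes. The level of the inducible strains was compared directly as well. At 0 min no gene (0%) differed by limma (133 at an unadjusted p under 0.05), and the 14 protein-coding genes called lower lay between -0.21 and 0.04. At 20 min 14 genes were lower with Yhp1-13A (0.225%), and at 60 min 24 were lower (0.385%) and 2 higher (0.0321%). At 0 min the yhp1-13A control minus the YHP1 control was below 0 for all 8 genes of 20 min (-0.80 to -0.16). It was also below 0 for all 12 protein-coding genes of 60 min (-0.80 to -0.06), against 32.17% of all genes. By its definition, the difference between alleles is made lower by a lower yhp1-13A control at 0 min, so part of it lay there in these genes. With the controls left out, 6 of the 8 and 12 of the 12 genes kept their call, the exceptions being PRY1 and NDL1 (-0.55) at 20 min. With the 0 min libraries left out, 5 of the 8 and 11 of the 12 kept it. The difference at 20 min was then -0.46 for KIN3, -0.53 for BNS1 and -0.16 for PRY1, and at 60 min -0.55 for YML119W, none of them called. That of PRY1 at 60 min was -0.72 and remained called (adjusted p = 0.00351).

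**Figure D4:**
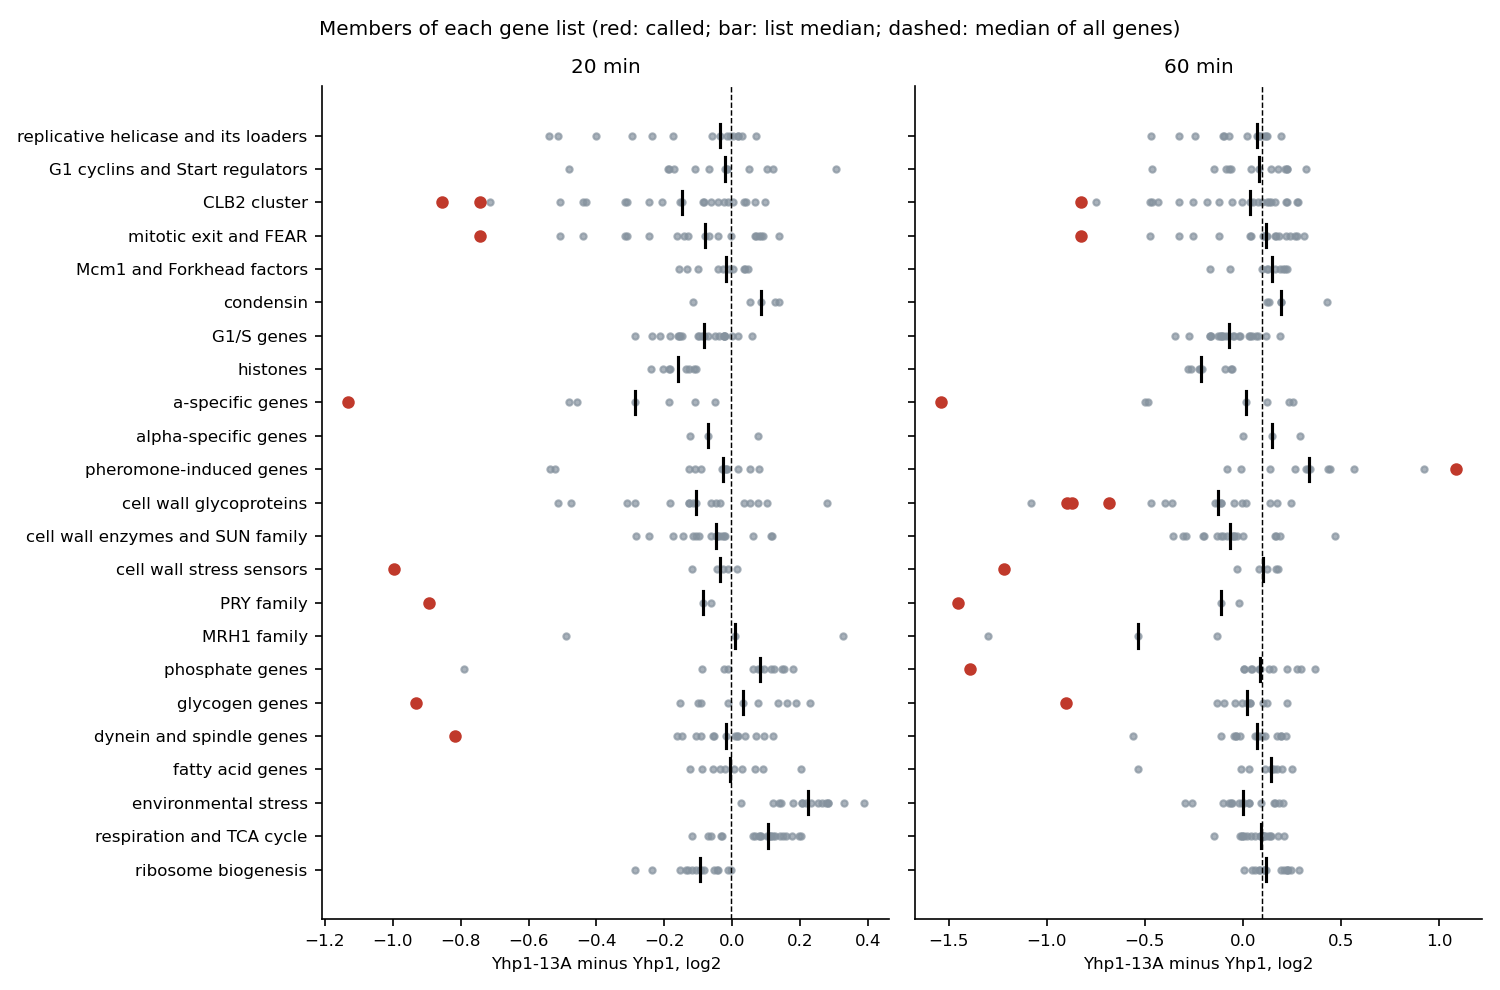
Difference between alleles in log2 for every tested member of the gene lists at 20 and 60 min (2 lists not drawn), 1 point per gene, with the list median as a bar, the median of all genes as a dashed line and called genes in red. The called members MFA2, WSC4, PRY1, PHO3 and PIG1 stand apart from the rest of their lists.

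Lists for growth and stress held no called gene. The 16 environmental stress genes were all above 0 at 20 min, with a median of 0.23 against -0.00 for all genes, and had a median of 0.00 at 60 min. The 15 ribosome biogenesis genes were all below 0 at 20 min (median -0.10) and all above it at 60 min (median 0.12). The 8 histone genes lay below 0 at both times (medians -0.16 and -0.21), and 21 and 16 of the 23 G1/S genes did. For 138 ribosomal protein genes the median was -0.01 at both times. At 60 min 24.3% of all genes lay below 0, so a value near 0.10 is the level of the typical gene there. The elongase gene ELO1 passed the p threshold at 60 min and missed the size threshold (-0.53, adjusted p = 0.012).

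The sequences upstream of the 14 protein-coding genes called lower were read from the R64 genome of RefSeq, 500 bases before each start codon, for letters found in the sites of these factors. The box CC, 6 bases of any kind, GG is the core of Mcm1 sites, and TAATTA or TAATTG, on either strand, the core of homeodomain sites. The box was found upstream of 12 of the 14 genes (85.7%) and of 49.1% of 5716 genes. TAATTA was found in 8 (57.1%) against 24.7% of all, TAATTG in 9 (64.3%) against 34.7%, and either in 11 (78.6%) against 50.6%. Box and homeodomain core lay in 1 window of 30 bases upstream of 4 of the 14 genes (28.6%) and of 2.4% of all, a criterion chosen after the data were seen. These 4 windows, and 2 windows of MFA2 that hold the box alone, show how the letters are placed; the box and the core are in capitals, and each is written on the strand of its gene.
BNS1, chrVII:951501-951530, plus strand, first base 393 before the start codon: actatCCtaaaaaGGaatgTAATTAactta
KIN3, chrI:171819-171848, minus strand, first base 145 before: cattacgtttCCTAATTAGGttaaacgtaa
PRY1, chrX:291234-291263, minus strand, first base 489 before: acagTAATTAttattCCtaaagaGGtaata
HSP150, chrX:119951-119980, plus strand, first base 498 before: cccccttctgCCCAATTAGGcgaccctcac
MFA2, chrXIV:351993-352022, plus strand, first base 421 before: cattactataCCgtttatGGtataaattag
MFA2, chrXIV:352163-352192, plus strand, first base 251 before: catgtatttaCCtattcgGGaaatttacat
In KIN3 and HSP150 the homeodomain core lies inside the box, so the same letters count for both, and in BNS1 and PRY1 the 2 stand 4 and 5 bases apart. The first box shown for MFA2 lies within the coding sequence of YNL146W, the next gene upstream, and not in the 396 bases between the genes. WSC4, TDA6 and YML119W held the box and neither core, and SED1 and TPO3 the core and no box. A match of letters is not a bound site.

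The genes that Yhp1-13A lowered further were mostly genes that induced Yox1 lowers. In the other strains of the series, which have their own controls and libraries, Yox1 lowered 160 genes at 20 min (2.56%) and 180 at 60 min (2.88%). All 8 genes called here at 20 min were among them, 5% of the Yox1 list, and 11 of 13 at 60 min, 6.15% of it, the exceptions being tF(GAA)D and YML119W. Of the 160 genes 137 (85.6%) lay below 0 in the difference between Yhp1-13A and Yhp1 at 20 min, against 50.75% of all genes, with a median of -0.16. At 60 min 130 of the 179 tested (72.6%) did, against 24.3% of all, with a median of -0.11. The calls here did not follow the depth of repression by Yox1 in every gene, and the order over the whole list was not tested. MCM7 had -4.60 with Yox1 at 20 min and was not called between the Yhp1 alleles, while WSC4 had -1.61 and was. MFA2, with the lowest difference of the 8 genes, also had their lowest value with Yox1, -5.15, where Yhp1-13A gave -2.02 and Yhp1 -0.89.

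**Figure D5:**
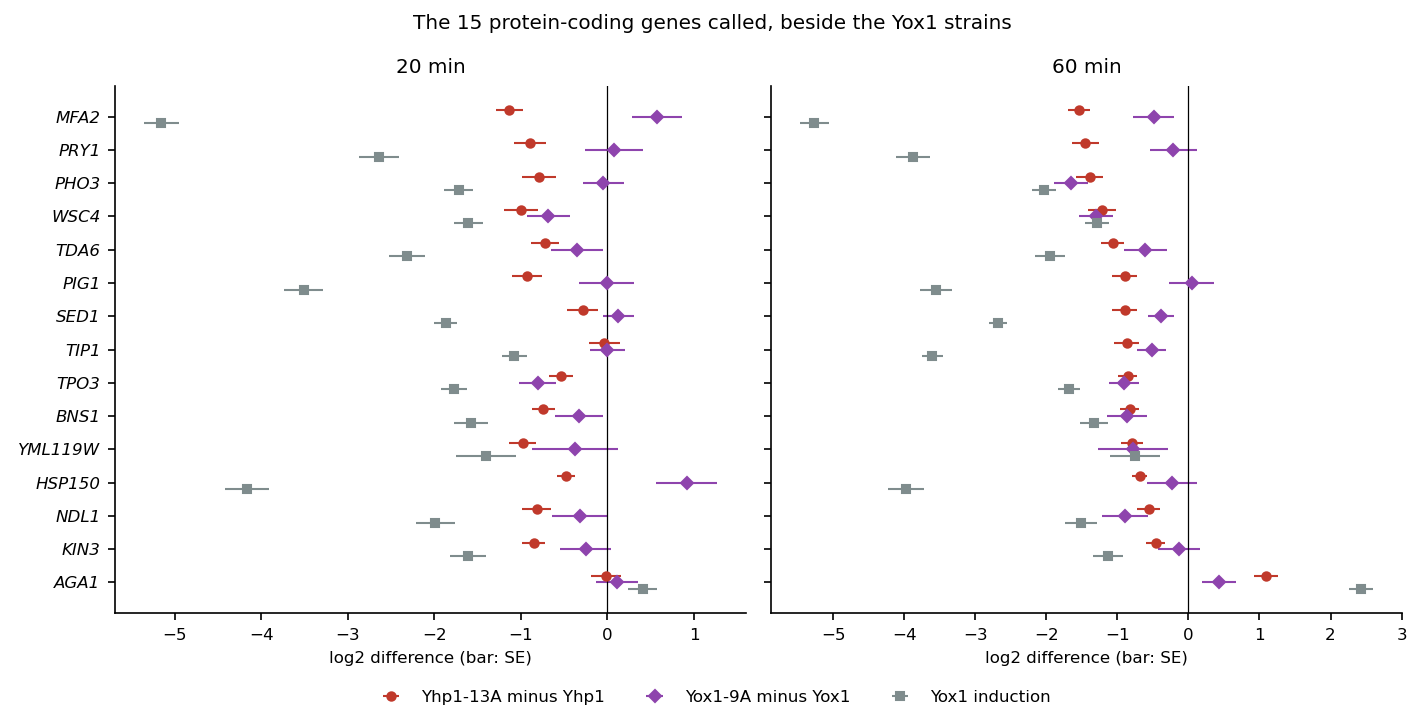
Difference between alleles in log2 at 20 and 60 min for the 15 called protein-coding genes, with Yhp1-13A minus Yhp1, Yox1-9A minus Yox1 and the Yox1 induction as points with standard errors. WSC4 and PHO3 at 60 min lie at -1.22 and -1.39 in the Yhp1 pair and at -1.30 and -1.66 in the Yox1 pair.

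Values for loss of the Cdk1 sites of Yox1 are set beside these. Of the protein-coding genes called lower in the Yhp1 pair, 6 of 8 lay below 0 in the Yox1 pair at 20 min and 11 of 12 at 60 min. Yox1-9A minus Yox1 called no gene at 20 min by limma (108 at an unadjusted p under 0.05), and 18 lower (0.288%) and 2 higher (0.032%) at 60 min. Of the genes called in the Yhp1 pair, WSC4 (-1.30, adjusted p = 0.0122) and PHO3 (-1.66, adjusted p = 0.000762) were also called lower in the Yox1 pair. For MFA2 the Yhp1 pair had -1.13 and the Yox1 pair 0.58 at 20 min, a difference of -1.71 that missed the threshold (adjusted p = 0.0571). A joint test of the 2 differences called no gene at 20 min (93 at an unadjusted p under 0.05) and at 60 min 1 lower (0.0161%) and 15 higher (0.242%) in the Yhp1 pair. None of the 15 genes called lower between the Yhp1 alleles was among these 16.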

How the data were processed

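RNA of 36 yeast libraries in 12 groups of 3 was analysed, with groups taken per the labels from strain and time, and 36 Yox1 libraries were set beside them. The authors aligned reads to R64 with STAR 2.5.3a, counted them with featureCounts 1.5.2 and deposited TPM per gene. Their labels name polyA depletion and the study's methods poly-A purification, and the sources used here do not give strand, so tRNA, antisense, overlapping and duplicated genes are uncertain. Replicates are described as biological. The deposited TPM sum to 999743.6 to 999841.2 per library and give no depth.

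From the 6865 genes of the table, 6230 with a mean of at least 1 TPM were fitted as log2(TPM + 1) in limma 3.58.1 (R 4.3.3) with a mean-variance trend, a term per group and 9 blocks for replicate number within each time (18 residual degrees of freedom). Tests were two-sided. The study's fold and p thresholds were used. Same-numbered libraries deviated together within each time (54 pairs, r 0.337 to 0.816), and 36 of 36 libraries matched best with their own number, so the numbers were taken to pair the libraries. On simulated data for the difference at 60 min over 6230 genes, 164 of 200 changed genes were recovered (82%) with 3 unchanged genes called. Every planted change exceeded the fold threshold, and the noise was independent between libraries. With 14 genes called in the real data at 60 min, the 82% does not give the power of the real comparison. Yox1 libraries were fitted alike in their own table (6255 genes), and both jointly for the test between pairs (6209 genes).

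Named genes were YHP1, YOX1 and HO, the 15 lowest and 15 highest called genes per difference, and in each list the called members and up to 3 with the largest difference. Others (PHO5, PRY2, PRY3, and genes called in an induction or in the test between pairs) were chosen after their values were seen. The members and lists were chosen with earlier results of these data known. Upstream sequence was read from the RefSeq R64 genome, with coordinates of the same build. Alternatives were other pseudocounts, filters and blocks, no trend, a common median, no subtraction of controls or of 0 min, and leaving out each library.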

Additional observations from a re-analysis of the deposited data

Results flagged for a closer look

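AGA1 had a larger difference between the Yhp1 alleles at 60 than at 20 min, by 1.10 in log2 (limma adjusted p = 0.00675), with 1.09 at 60 min and -0.02 at 20 min.

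At 60 min the difference between Yhp1-13A and Yhp1 differed from that between Yox1-9A and Yox1 in 13 list genes, by the joint limma test. In genes transcribed in late mitosis and early G1 the Yhp1 pair exceeded the Yox1 pair by 0.90 for the chitinase gene CTS1, 1.33 for SCW11, 1.10 for DSE1, 1.38 for DSE4, 1.58 for EGT2, 1.40 for AMN1 and 1.23 for RME1. The Yox1 pair itself had -0.81 for CTS1, -1.05 for SCW11, -0.90 for DSE1, -1.20 for DSE4, -1.25 for EGT2, -1.12 for AMN1 and -0.99 for RME1. For the wall genes PIR1, PST1 and CHS1 the excess was 1.64, 1.24 and 1.25. MRH1 had an excess of 1.42, with -0.53 in the Yhp1 pair and -1.96 in the Yox1 pair, and FAA3, a fatty acid activating enzyme, one of 1.01. The a-factor gene MFA1 had the opposite sign, -1.92 (adjusted p = 0.0093), with -0.49 in the Yhp1 pair and 1.43 in the Yox1 pair. In the Yhp1 pair none of these 13 genes was called.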

How the results depend on the processing

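The calls depended most on the replicate block. Of 8 genes called at 20 min, 14 at 60 min and 1 between the times, no block left 0, 1 and 0, and a block shared by all times left 1, 3 and 0. At 20 min a pseudocount of 10 gave 3 calls, and no filter, a common median and a fit to the times compared alone each gave 5. A common median moved the median of all genes by 0.03 at 20 min, -0.10 at 60 min and -0.13 between the times, where it gave 0 calls. Without the controls 20 genes were called at 60 min and 5 between the times, where omitting 0 min gives no value. Leaving out 1 library gave 3 to 9 calls at 20 min, 11 to 17 at 60 min and 1 to 2 between the times. The count of 3 came without replicate 3 of the Yhp1-13A or Yhp1 strain at 0 min or replicate 2 of the yhp1-13A control at 20 min. MFA2 at both times and KIN3 and YML119W at 20 min kept their call without any 1 library. So did PHO3, WSC4, PRY1, HSP150, BNS1, PIG1, TPO3, TDA6, AGA1 and tF(GAA)D at 60 min.

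Of the uncalled differences at 20 min, that of HO was 0.006 with a common median (-0.25 to 0.15 without 1 library), and that of YHP1 0.0453 without the controls and 0.32 without 0 min (-0.20 to 0.0097 without 1 library). The cause was not tested. Depth limits low genes such as TDA6 and PIG1 by an amount that TPM do not give.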
